A study of Mus musculus with 8 samples.

Results

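Constant H3K9me2 windows are the stretches of the mouse autosomes at which nearly every library of the study had called the mark, with or without the gene under study. The autosomes were divided into 1 kb windows starting at positions 1, 1001 and so on, and a window was kept where merged H3K9me2 peaks covered 500 bp or more in at least 5 of 6 libraries. This held for 1356 of 2460766 windows, or 0.0551%. The members were thus selected on the peak coverage of all 6 libraries. These came from tumour regulatory T cells (Treg) of mice of the strain C57BL/6 that were 8 to 12 weeks old. The 3 knockout libraries (cKO, genotype JMJD1CTregcKO) carried a Treg-specific knockout of JMJD1C, whose deletion peak lists cannot show, and the 3 wild-type libraries (WT) had the genotype JMJD1CWT. Chromatin accessibility was measured by ATAC-seq in 1 library of tumour Treg and 1 of spleen Treg, both JMJD1CWT and of the same strain and age. Neither the Cre driver nor the tumour model is given here.

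H3K9me2, histone H3 dimethylated on lysine 9, is a mark of silent chromatin that is laid down mainly by the methyltransferases G9a and GLP and often covers gene-poor regions in broad domains. JMJD1C belongs to the KDM3 family of Jumonji proteins, members of which remove methyl groups from this residue. Treg are the CD4 T cells that restrain immune responses under the transcription factor Foxp3. CUT&RUN maps the mark with a nuclease tethered by an antibody, and ATAC-seq uses a transposase that inserts into open DNA.

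The libraries held 24774509 to 30313851 tags for H3K9me2, with 11293674 for tumour ATAC and 11068821 for spleen ATAC. The deposited lists had 109816 to 178546 peaks, covering 5.34, 4.47 and 3.65% of the autosomes in cKO replicates 1, 2 and 3, against 3.80, 4.04 and 3.35% in WT replicates 1, 2 and 3. Whether replicates were separate animals is not labelled, and their spread may be technical. In the header sample names, cKO replicates 1 and 3 carry 1 knockout number and may share a source, and no name prefix is common to cKO and WT. Any batch behind those names cannot be told apart from genotype. Of 20 Treg identity genes, 18 had a tumour ATAC peak in the span or within 5 kb, Foxp3 and Il2ra among them, and 16 had a spleen ATAC peak, while Ctla4 and Icos had none in either list. Of 10 markers of CD8 T cells, B cells, myeloid, epithelial and melanocyte cells, 2 had a tumour peak (Cd14 and Mlana) and 1 a spleen peak (Dct). The same share over all coding genes is not given here, and these 10 markers were chosen after the data were seen. The counts are thus a description and no test of cell identity.

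Constant windows met few annotated gene starts. A promoter entry can meet more than 1 window, so a share of entries and a share of windows are not alike in unit. RefSeq promoter sequences (GRCm38.p6, the assembly of mm10, running from 250 bases before to 50 after the start) overlapped constant windows at 19 of 31365 autosomal entries (0.0606%, beside 0.0551% of all autosomal windows), which belong to 16 genes. A pair of these starts was covered over all 300 bases in each cKO library and in at least 1 WT library, and another pair carried ATAC peaks in both tissues, so these 4 are shown, 5′ to 3′ on the gene's strand, with each CpG in capitals. The 4 are the promoters of Gm32311 (chr1:53700076-53700375, plus strand), Gm32038 (chr13:50673350-50673649, minus strand), Gm38748 (chr5:146857606-146857905, plus strand) and Bmt2 (chr6:13677917-13678216, minus strand).
Gm32311: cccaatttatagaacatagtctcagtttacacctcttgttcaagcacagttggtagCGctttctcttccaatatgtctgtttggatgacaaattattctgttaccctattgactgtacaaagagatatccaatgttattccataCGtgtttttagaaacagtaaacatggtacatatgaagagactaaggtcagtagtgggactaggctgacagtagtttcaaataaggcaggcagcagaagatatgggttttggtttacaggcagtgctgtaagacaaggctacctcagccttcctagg
Gm32038: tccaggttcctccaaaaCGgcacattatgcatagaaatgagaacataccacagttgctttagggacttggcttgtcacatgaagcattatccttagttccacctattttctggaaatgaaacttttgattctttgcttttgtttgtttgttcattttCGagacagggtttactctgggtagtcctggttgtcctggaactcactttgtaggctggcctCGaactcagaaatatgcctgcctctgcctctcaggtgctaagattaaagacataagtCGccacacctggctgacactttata
Gm38748: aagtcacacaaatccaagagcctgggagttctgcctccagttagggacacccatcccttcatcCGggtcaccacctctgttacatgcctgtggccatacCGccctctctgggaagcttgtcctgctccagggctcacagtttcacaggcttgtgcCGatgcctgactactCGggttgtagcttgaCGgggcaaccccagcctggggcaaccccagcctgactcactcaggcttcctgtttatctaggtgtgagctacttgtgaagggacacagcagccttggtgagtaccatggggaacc
Bmt2: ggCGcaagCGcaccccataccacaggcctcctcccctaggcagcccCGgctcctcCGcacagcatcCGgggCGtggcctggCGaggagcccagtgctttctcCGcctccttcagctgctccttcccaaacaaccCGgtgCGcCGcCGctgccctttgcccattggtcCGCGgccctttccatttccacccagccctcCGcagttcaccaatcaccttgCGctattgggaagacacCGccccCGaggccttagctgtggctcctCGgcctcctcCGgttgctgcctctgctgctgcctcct
The motif searched was CG, which reads the same on both strands. The predicted genes Gm32311 and Gm32038 hold 2 and 4 CpG, the predicted lncRNA gene Gm38748 holds 5, and Bmt2, which encodes SAMTOR, an S-adenosylmethionine sensor that inhibits mTORC1, holds 20. Over the 19 entries the median was 4 CpG and a GC content of 45.3%, beside 7 CpG and 53% over 31365 autosomal promoter entries and 6 CpG and 51.3% over the 65 entries at windows covered in exactly 4 libraries. At least 1 CpG was present in 94.7% of the entries at constant windows and in 94.7% of all entries. The promoter of Gm32311 was under peaks over 300 bases in cKO replicates 1, 2 and 3, against 300, 300 and 0 bases in WT replicates 1, 2 and 3. The promoter of Gm32038 was covered over 300, 300 and 300 bases in cKO, against 300, 202 and 0 in WT. Gm32311 and Gm32038 were chosen for full coverage in each cKO library, so cKO could not lie below WT there. The promoter of Gm38748 was covered over 0, 300 and 72 bases in cKO, against 207, 300 and 300 in WT, and that of Bmt2 over 181, 2 and 153 bases, against 186, 0 and 0. At Bmt2 the constant window lies mostly upstream of the part shown, and the CpG-rich start itself was under a peak over at most 186 of 300 bases in each library. No constant window held any of the 919 autosomal miRNA hairpins, which are too few to expect 1 at the overall rate of 0.0551%.

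Agreement between libraries fell steeply with the number of libraries asked for. Windows with 500 bp or more covered numbered 363262 in exactly 1 library, 78079 in 2, 19916 in 3, 5281 in 4, 1191 in 5 and 165 in all 6, and 1992872 were covered in none. The rule chose windows on these values, so the counts describe the choice and were not tested. Constant windows made up 0.939, 1.08 and 1.20% of the windows covered in cKO replicates 1, 2 and 3 and 1.26, 1.16 and 1.34% of those covered in WT replicates 1, 2 and 3. The rest of each library's covered windows were shared with at most 3 of the other libraries.

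With at least 5 of 6 libraries required, the rule itself makes each member covered in at least 2 libraries of each genotype. The counts per library therefore describe the choice. Of the 1356 windows, cKO replicates 1, 2 and 3 covered 1238, 1192 and 1076, and WT replicates 1, 2 and 3 covered 1179, 1158 and 1102. The counts of the genotypes overlap, with cKO replicates at both the highest and the lowest value. Among the 1191 windows that lacked 1 library, 562 lacked a cKO library and 629 a WT library. The median length covered per window was 806, 850 and 763 bp in cKO and 800.5, 741.5 and 775.5 bp in WT. Windows under peaks from end to end numbered 418, 484 and 401 in cKO and 419, 388 and 400 in WT.

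**Figure D1:**
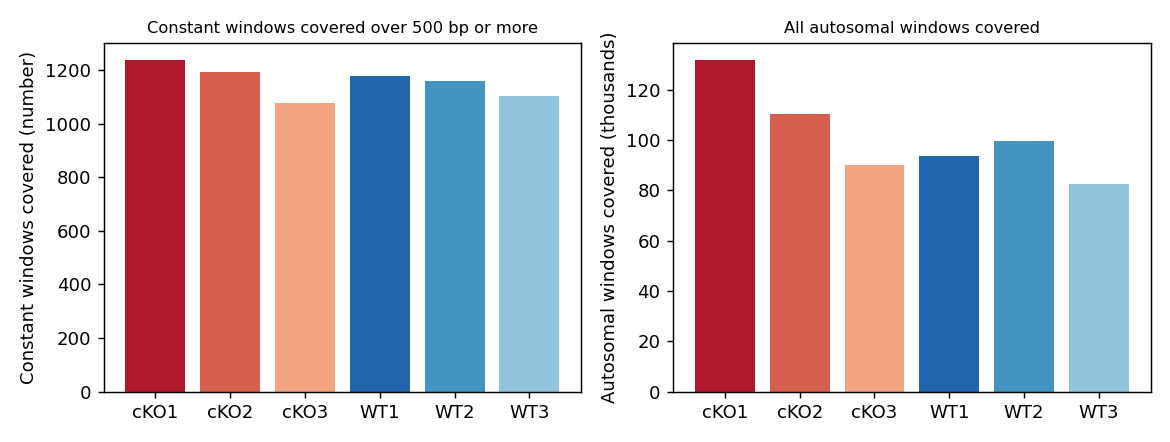
Bars give, for cKO replicates 1 to 3 and WT replicates 1 to 3, the number of constant windows (left) and of all autosomal windows (right, divided by 1000) covered over 500 bp or more. Coverage of constant windows ran from 1076 to 1238 per library, while the windows covered in all ran from 82507 to 131775.

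The threshold ran through a dense part of the distribution. In 376 constant windows the fifth best library had exactly 500 bp covered and in 68 it had 501 to 520 bp, while 145 windows fell just outside with 480 to 499 bp. Peaks of exactly 500 bp, the peak size set in the caller, made up 42.2 to 47.3% of each deposited list. With more than 500 bp required, 980 windows remained.

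Peaks at constant windows were long and of ordinary height. In cKO replicates 1, 2 and 3 their median length was 1343, 1555 and 1426.5 bp, and in WT replicates 1, 2 and 3 it was 1431, 1327 and 1419.5 bp, beside 628 to 635 bp over the whole lists. Between 62.3 and 76.3% of the peaks touching a constant window were 1 kb or longer, against 19.5 to 24.3% of all peaks. The median fold over the surrounding region, as the authors' caller gave it, was 2.69 to 2.85 at constant windows and 2.50 to 2.75 in the lists, and tags per kb were 5.65 to 6.61 and 5.03 to 6.86. A longer peak covers a window more readily, so the rule itself favours length, and these values are a description. The best peak of a median constant window ranked at 36.4 to 51.5% of its list by score, with 0 the strongest, and at 12.1 to 16.1% by tags in the peak, a quantity that grows with length. Scores, tags and folds of peaks are the authors' values throughout.

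Constant windows lay outside genes more often than the average window. A protein-coding gene span held 371 of them, or 27.4% (95% Clopper-Pearson interval 25.0 to 29.8%, which covers counting error only), beside 40.7% of all autosomal windows and 30.03% of windows covered in exactly 4 libraries. No annotated gene of any kind was present at 796 (58.7%), beside 50.5% of all windows and 58.7% of windows covered in 4. The median distance to the nearest coding gene was 23.3 kb, against 21.2 kb for windows covered in 4 and 10.1 kb for all windows. The share in coding genes was 23.6% in all 6 libraries, 27.9% in 5, 36.8% in 2 and 40.9% in none. All windows include unsequenced gaps of the assembly, where no peak can lie. Long non-coding RNA genes held 134 constant windows (9.88%), beside 9.17% of all windows.

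Pseudogenes, the decayed copies of genes, went the other way. They held 58 constant windows, or 4.28%, beside 2.39% of windows covered in exactly 4 libraries and 1.51% of all autosomal windows. The share was 1.51% of windows covered in no library, 1.42% in 1, 1.71% in 2, 1.91% in 3, 2.39% in 4, 4.28% in 5 and 4.24% in 6, of which the last rests on 7 windows. Several of the 58 lay in the pseudogene Gm14412 on chromosome 2, some of them side by side, so they are not independent. Pseudogenes can share sequence with their parent genes. The placing of reads that match several positions is not stated, and its part in this share was not tested.

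**Figure D2:**
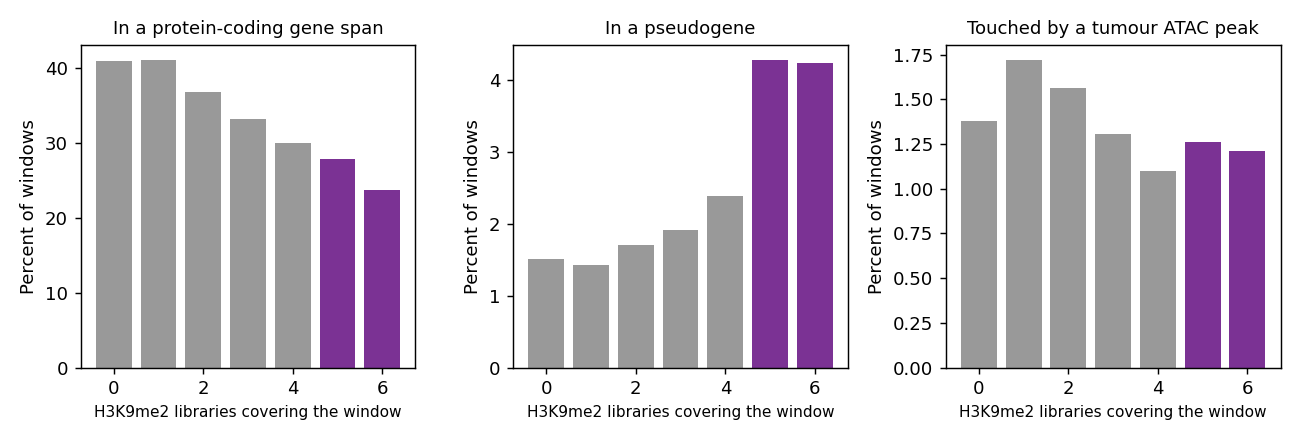
Bars give the percent of autosomal 1 kb windows in a protein-coding gene span (left), in a pseudogene (middle) and touched by a tumour ATAC peak (right) by the number of H3K9me2 libraries covering the window, with constant windows in purple. From none to all 6 libraries, the coding share runs from 40.9 to 23.6% and the pseudogene share from 1.51 to 4.24%, while the ATAC share runs from 1.38 to 1.21% with a high of 1.72% at 1 library.

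Coding genes that held constant windows were long. They numbered 306 of 20661 autosomal genes (1.48%), and 249 of them held 1 window, 46 held 2 and 11 held 3 or more. Their median length was 183 kb, against 17.5 kb for all, and 69.3% of them were over 100 kb, against 11.2% of all. A longer gene spans more windows and so has more chances to hold one. Among 19 autosomal Treg identity genes and 20 autosomal genes of the H3K9 methylation machinery, 0 held a constant window in the span or within 5 kb. These lists span 1410 and 1336 windows, and at the overall rate of 0.0551% fewer than 1 constant window would fall in each.

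Gbe1, the glycogen branching enzyme gene (chromosome 16, 70313949 to 70569720), held 5 constant windows, the most of any gene. They lay within 13 kb (70548001 to 70561000), a stretch that was covered over 32.1, 47.8 and 37.3% in cKO replicates 1, 2 and 3, against 39.3, 43.1 and 30.9% in WT replicates 1, 2 and 3. The values of both genotypes overlap. Apba2, which encodes a neuronal adaptor that binds the amyloid precursor protein, held 4 adjacent windows (chromosome 7, 64607001 to 64611000). That stretch was covered over 78.3, 97.8 and 73.0% in cKO, against 51.8, 99.0 and 100% in WT, and WT replicate 1 was the low library. Over the whole gene, Apba2 was covered over 6.33, 5.77 and 7.49% in cKO, against 2.12, 7.33 and 4.10% in WT.

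Dnm3, which encodes the GTPase dynamin 3, and Gm14393, a predicted coding gene, held 4 windows each, in both cases spread along the gene. Dnm3 was covered over 8.94, 8.29 and 8.14% of its span in cKO, against 8.70, 7.45 and 7.60% in WT. Gm14393 was covered over 15.4, 15.8 and 10.6% in cKO, against 12.8, 12.6 and 14.9% in WT. Sp140, a chromatin reader gene expressed in leukocytes, held 3 windows in 57.6 kb and was covered over 11.7, 9.66 and 10.4% in cKO, against 7.60, 11.2 and 13.1% in WT. In all 3 genes the libraries of the genotypes overlap.

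The other genes with 3 windows were Meox2, a homeobox gene, Me3, the mitochondrial malic enzyme gene, Nlgn1, which encodes a synaptic adhesion protein, and Nckap5, Iqcm and 4921528I07Rik. The Meox2 windows (chromosome 12, 37152001 to 37155000) were covered over 90.5, 100 and 0% in cKO, against 94.8, 93.5 and 99.97% in WT, so the library without a peak was cKO replicate 3. At the Iqcm windows (chromosome 8, 75696001 to 75699000) coverage was 82.0, 87.1 and 85.8% in cKO, against 31.1, 69.2 and 58.7% in WT. The Iqcm values do not overlap between the genotypes. The rule acted on these same values and many such stretches were looked at, so that is a description. Me3 was covered over 6.78, 5.37 and 7.42% of its span in cKO, against 2.24, 4.72 and 3.87% in WT, again without overlap.

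Genes with 2 constant windows included Mrc1, the macrophage mannose receptor gene, Abcc9, a subunit gene of potassium channels, Sult2a1, a sulfotransferase gene, Acbd6, an acyl-CoA binding protein gene, and Pter. Mrc1 was covered over 7.79, 8.93 and 7.80% of its span in cKO, against 9.46, 11.4 and 4.98% in WT. The overlapping genes Spink10 and Spink13, members of a family of protease inhibitors, shared the same 2 windows. Acbd6 was covered over 8.03, 9.31 and 6.73% in cKO, against 5.30, 5.81 and 3.57% in WT, and Spink13 over 9.90, 9.48 and 9.62%, against 5.73, 5.52 and 5.64%. Of the 20 genes with the most constant windows, each cKO library lay above each WT library at 5 (Me3, 2610008E11Rik, Spink10, Acbd6 and Spink13), below at 0, and the libraries overlapped at 15. These percents are not scaled to the coverage of each library, which was highest in cKO replicates 1 and 2, and were not tested. Spink10 and Spink13 overlap, so the 5 genes are not 5 separate places. The same count over all coding genes is not given here, so the 5 cannot be read as particular to genes with constant windows. Over the 20 genes with the most constant windows, coverage of the whole span lay between 2.04 and 18.1% in cKO libraries and between 2.10 and 15.5% in WT libraries.

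Gene families with members in tandem clusters each held few constant windows, too few to tell the families apart. Families were set by gene symbol alone, so members under other names, such as Gm names, were not counted. Defensin genes, which encode antimicrobial peptides, had 2 in 957 windows of their spans with 5 kb on each side (0.209%), at Defa35 and Defa26. Genes of the Cyp2 group of cytochrome P450 enzymes had 3 in 1852 (0.162%), at Cyp2c68 and Cyp2a22. Vomeronasal receptor genes, which encode pheromone receptors, had 6 in 7425 (0.0808%). Zinc-finger genes, many of which encode repressors of transposable elements, had 9 in 17550 (0.0513%). They were taken by the symbols Zfp, Zscan, Zkscan, Zik and Rex, inside clusters or not, so this share does not describe zinc-finger clusters. Olfactory receptor genes had 3 in 13443 (0.0223%), at Olfr294, Olfr54 and Olfr982. All coding genes with the same margin had 462 in 1134223 (0.0407%), beside 0.0551% of all autosomal windows, and the small counts of each family leave its share imprecise. The windows of the Cyp2 and olfactory receptor genes all lay in the 5 kb margins, outside the gene spans.

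These families held 25 distinct windows, of which 20 had no peak in 1 library and 5 had some coverage in all 6. Of all 1356 constant windows, 398 were touched by a peak in all 6 libraries. A library without a peak was thus common in the whole set and not particular to these families. The window by Olfr982 was covered over 1000 bp in each cKO library and in WT replicates 1 and 2, and over 0 bp in WT replicate 3. The window in Defa35 was covered over 628, 878 and 0 bp in cKO, against 847, 521 and 650 bp in WT. The second window by Cyp2c68 was covered over 1000, 70 and 1000 bp in cKO, against 1000, 745 and 711 bp in WT. The vomeronasal genes Vmn2r29, Vmn2r30 and Vmn2r32, neighbours on chromosome 7, had 1 constant window each. Vmn2r29 had 831, 882 and 1000 bp in cKO, against 1000, 723 and 0 bp in WT, and Vmn2r30 had 871, 0 and 787 bp, against 1000, 653 and 625 bp. One window lay in both Zfp981 and Zfp993, with 917, 858 and 932 bp in cKO and 627, 740 and 0 bp in WT. The keratin and Skint families held 1 window each, and clustered protocadherin, Speer, Mup, Klr, Prl, Ear, serpin and histone genes held 0.

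**Figure D3:**
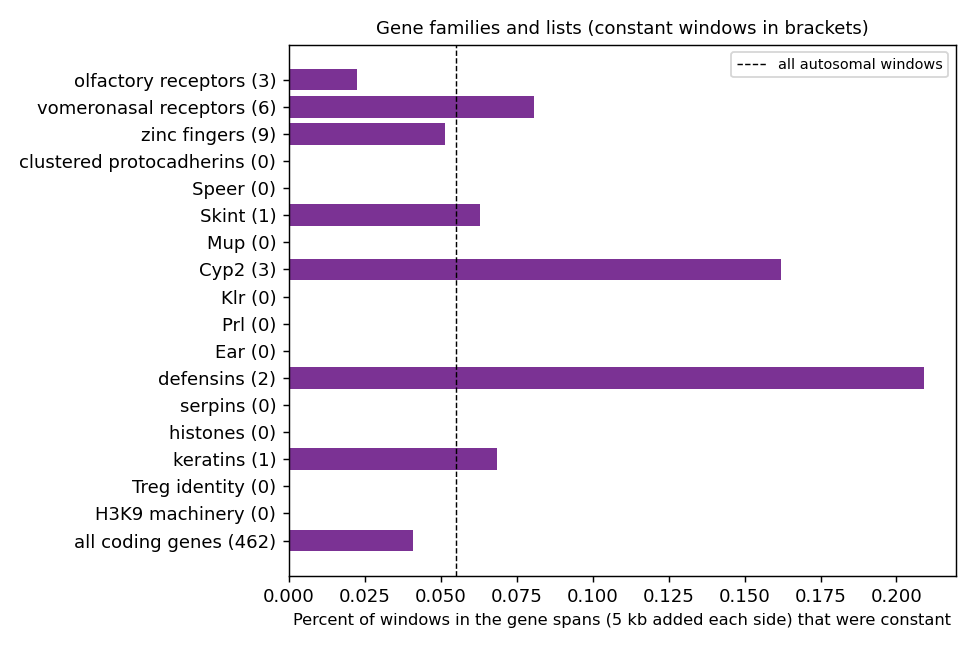
Bars give, for each gene family or list, the percent of 1 kb windows in its gene spans with 5 kb on each side that were constant, with their number in brackets and the share of all autosomal windows as a dashed line. Defensin and Cyp2 genes stand highest on 2 and 3 windows, and olfactory receptors lie below the line on 3.

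Constant windows lay in short runs scattered over the genome. Within 10 kb of another lay 324 of them (23.9%), in 147 groups of at least 2, and the other 1032 stood alone. The same share was 24.4% for the 5281 windows covered in exactly 4 libraries, which are more numerous and so closer together by number alone. Windows next to each other gave 99 pairs and 10 triples. A peak that crosses a window border can place both windows in the set, so neighbours are not independent.

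Among these groups the most windows, 6, lay on chromosome 4 at 9724001 to 9737000 with no annotated gene within them and the nearest coding gene 54.7 kb away. This stretch was covered over 42.1, 12.7 and 43.2% in cKO replicates 1, 2 and 3, against 46.3, 46.4 and 45.3% in WT replicates 1, 2 and 3. The cKO values all lay below the WT values, with cKO replicate 2 far lower. The rule acted on these same values and lets a library lack a peak at a member. The order of the libraries is thus a description, here and at the groups below. A group of 4 on chromosome 16 (86958001 to 86962000), 392 kb from a coding gene, was covered over 84.6, 90.2 and 82.0% in cKO, against 95, 73.5 and 78.3% in WT. A group of 4 on chromosome 14 (41716001 to 41724000) was covered over 33.4, 39.8 and 29.5% in cKO, against 50.3, 41.1 and 44.6% in WT. It held the windows whose weakest peak ranked best among all members, with 13.7, 19.3 and 20.5 normalised tags (tags in the peak per 10000000 in the library) in cKO and 18.8, 11.7 and 13.0 in WT at the window starting at 41716001. A group of 3 on chromosome 2 (101478001 to 101481000) was covered over 100, 97.1 and 77.7% in cKO, against 71.3, 98.8 and 88.4% in WT. Of the 10 groups with the most windows, ties taken in chromosome order, 2 lay in coding genes, Gbe1 and Apba2, and none touched an ATAC peak.

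At a coarser scale, 878 of 2470 stretches of 1 Mb held at least 1 constant window, and 19 held 5 or more, with 112 windows in all. The stretch with the most was on chromosome 2 from 177000001 to 178000000, with 13 windows and 7 coding genes, among them the zinc-finger genes Zfp970 and Zfp972. Next was chromosome 14 from 41000001 to 42000000, with 8 windows and 20 coding genes, many of them predicted genes. Another 6 stretches held 6 windows each. They were a stretch of Serpinb genes on chromosome 13, 2 neighbouring stretches with defensin genes on chromosome 8, the stretch with Gbe1 as its 1 coding gene on chromosome 16, a stretch with 3 coding genes on chromosome 4 and a stretch with 18 on chromosome 9. No window lay in or within 5 kb of a serpin gene, so those on chromosome 13 were between the genes. The stretch on chromosome 2 was covered over 7.82% on average over the 6 libraries, against 4.11% for all autosomal windows. In stretches without a coding gene 0.0552% of windows were constant, against 0.0530% with 1 to 5 genes, 0.0623% with 6 to 15 and 0.0457% with 16 or more. Unsequenced gaps, where no peak or gene can lie, were not removed. The share without a coding gene may thus be too low, and these classes cannot be ranked. By chromosome the share ran from 0.0303% (37 windows) on chromosome 11 to 0.0805% (79 windows) on chromosome 16.

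Accessible chromatin met constant windows about as often as it met other windows. A tumour ATAC peak touched 17 (1.25%, 95% Clopper-Pearson interval 0.732 to 2.0%), beside 1.43% of all autosomal windows. A spleen ATAC peak touched 16 (1.18%, 0.676 to 1.91%), beside 0.97%, and peaks of both tissues touched 12 (0.885%), beside 0.596%. With 1 ATAC library per tissue these shares have no replicate check, and differences of this size were not detectable with 1356 windows. The median distance to a tumour ATAC peak was 124 kb, against 92.3 kb for windows covered in 4 libraries. It was 107 kb for all autosomal windows and 117 kb for windows covered in no library.

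The 12 windows open in both tissues were split by whether their H3K9me2 peaks reached the top 1% by tag count. In 8 of them no library placed a peak there. The window in Gm36876 came close, with peaks ranked at 1.89 to 32.8% of their lists. The window in Nup35, a nuclear pore gene (chromosome 2, 80638001 to 80639000), had 2.62, 5.11 and 15.1 normalised tags in its H3K9me2 peaks in cKO, against no peak, 2.45 and 3.21 in WT, with 58.9 in tumour ATAC and 43.4 in spleen ATAC. The window beside Bmt2 (chromosome 6, 13678001 to 13679000) had 6.86, 11.9 and 13.2 in cKO, against 4.28, 2.45 and no peak in WT, with 172 in tumour ATAC and 108 in spleen ATAC. The window in Gbp7, an interferon-induced GTPase gene (chromosome 3, 142550001 to 142551000), had 3.43, 3.30 and 2.64 in cKO, against no peak, 2.10 and 4.73 in WT, with 30.5 in tumour ATAC and 14.9 in spleen ATAC. The cKO values at Bmt2 lay above the WT values, and those at Nup35 and Gbp7 overlapped them. The remaining 5 lay in Dcun1d3 and Rexo5, in the lncRNA genes Gm38748 and Gm36876, and at a place on chromosomes 12 and 15 each with no gene.

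The other 4 windows open in both tissues were pile-ups, places whose H3K9me2 peaks were in the top 1% by tag count in at least 5 lists. Their ATAC peaks ranked in the top 1% of both lists on chromosome 2 and in Chl1, at 0.0506% in tumour and 1.99% in spleen on chromosome 9, and at only 35.0% in tumour and 67.8% in spleen on chromosome 14. By peak score, 4 constant windows were in the top 1% of at least 5 lists, and by tag count 11 were. On chromosome 2 (98666001 to 98668000) the peak held 7268 normalised tags in cKO replicate 1, 6357 in replicate 3 and none was listed in replicate 2, against 2959, 5220 and 3559 in WT replicates 1, 2 and 3. It held the most tags of any peak in each of these 5 lists, and 2415 tags in tumour ATAC and 1984 in spleen ATAC. On chromosome 9 (35305001 to 35306000, in the lncRNA gene Gm33838) peaks held 317, 322 and 308 tags in cKO, against 92.7, 168 and 139 in WT, with 423 in tumour ATAC and 126 in spleen ATAC. In Chl1, a neural adhesion gene (chromosome 6, 103649001 to 103650000), they held 147, 131 and 132 in cKO, against no peak, 109 and 77.9 in WT, with 501 and 287 in tumour and spleen ATAC. On chromosome 14 (19417001 to 19419000) they held 75.5, no peak and 80.3 in cKO, against 34.2, 51.6 and 33.5 in WT, with 36.3 and 19.9 at the second window in tumour and spleen ATAC.

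At these 4 places each cKO library with a peak stood above each WT library. The places were chosen for their strength in the same libraries, so that is a description, and any batch in the library names cannot be told apart from genotype. Collapsed repeats and nuclear copies of mitochondrial DNA are known in general to give such pile-ups in any assay. No repeat or exclusion list was used here, so whether these places are of that kind was not tested. The other windows with high tag counts were a pair on chromosome 6 (59592001 to 59594000), with 28.3, 36.3 and no peak in cKO and 46.0, 38.5 and 28.4 in WT, and the 3 in Meox2, with 27.4, 27.5 and no peak in cKO and 41.7, 27.3 and 37.7 in WT. Neither touched an ATAC peak, and their cKO and WT values overlap. At least 1 library placed 235 constant windows in the top 1% by tag count, and 1121 reached it in none.

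A pile-up of the same kind missed the rule by its place on the grid. On chromosome 12 (3109720 to 3110345) peaks held 683, 563 and 612 normalised tags in cKO, against 212, 394 and 294 in WT, with 283 in tumour ATAC and 144 in spleen ATAC. It straddles a window border and covered 281 to 481 bp of one window and 344 to 474 bp of the other. Counted without a grid, as stretches of 500 bp or more in which every base was under a peak in at least 5 libraries, there were 971 constant stretches.

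**Figure D4:**
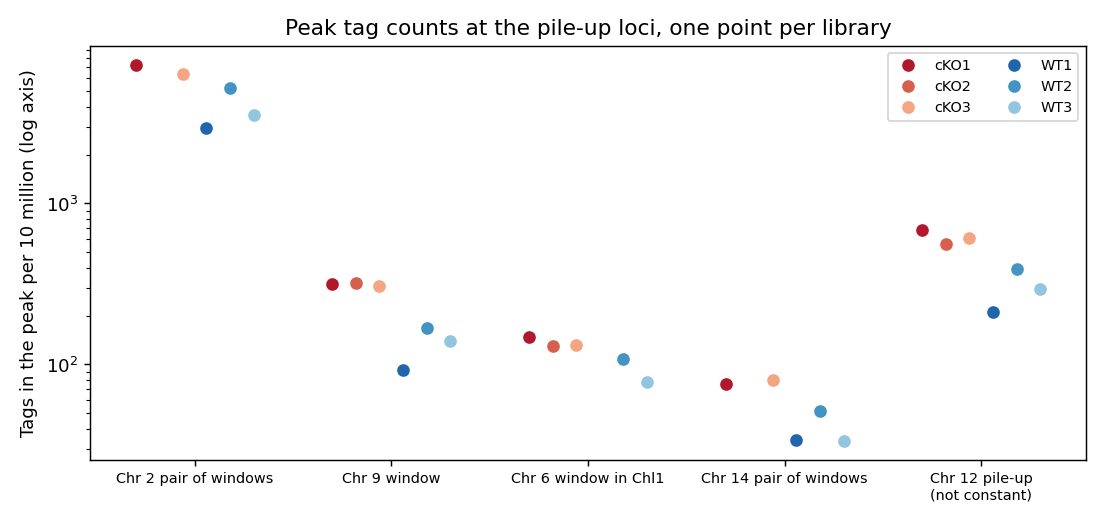
Points give tags in the H3K9me2 peak per 10000000 in the library (log axis) at 4 constant pile-ups and at the pile-up on chromosome 12, 1 point per library with cKO in red left of WT in blue, and no point where no peak was listed. At each place the cKO points stand above the WT points, for example 308 to 322 against 92.7 to 168 on chromosome 9.

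The windows around the constant ones are not members, and the genotypes were compared there. The rule left these windows out on coverage in the same 6 libraries, and the caller tested each peak against its surrounding 10 kb. The comparison is thus not independent of the choice of members. In the 21322 windows that lay 2 to 10 windows from the nearest constant one, peaks covered 1.505, 1.505 and 1.527 times the autosomal share of the same library in cKO replicates 1, 2 and 3, against 1.72, 1.60 and 1.68 times in WT replicates 1, 2 and 3. The cKO libraries all lay below the WT libraries. The means were 1.51 ± 0.0130 in cKO and 1.67 ± 0.0608 in WT (SD, n = 3 each), a difference of -0.16 times (exact permutation test, two-sided, p = 0.1, the smallest that 3 against 3 can give). Without the division by each library's own coverage the direction turned, with 6.78 ± 1.24% in cKO and 6.22 ± 0.500% in WT (exact permutation test, two-sided, n = 3 each, p = 0.5). Around the windows covered in exactly 4 libraries the values were 1.37, 1.36 and 1.35 times in cKO, against 1.59, 1.48 and 1.51 times in WT, so the lower relative value in cKO was not particular to constant windows.

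Coverage around constant windows followed a wave with the same shape in each library. It was 6.01 times the autosomal share in cKO and 6.92 times in WT at the adjacent window, was below that share from 3 to 5 windows, with its lowest value at 4 (0.568 in cKO and 0.726 in WT), and reached 2.35 in cKO and 2.49 in WT at 9 windows. Around windows covered in exactly 4 libraries it was 0.641 in cKO and 0.790 in WT at 4 windows and 1.90 in cKO and 2.12 in WT at 9. The caller tested each peak against the surrounding 10 kb, per the file headers, and the part of that filter in the wave was not tested.

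**Figure D5:**
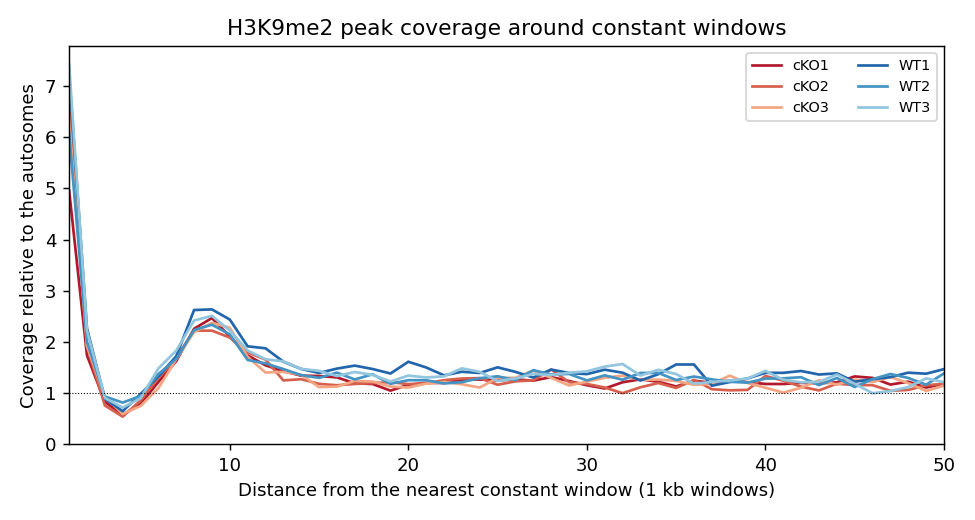
Lines give the percent of windows covered by H3K9me2 peaks, divided by the autosomal percent of the same library, against the distance from the nearest constant window in 1 kb windows, with 1 line per library and a dotted line at 1. All 6 lines dip at 4 windows and rise to between 2.22 and 2.64 at 9 windows.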

How the data were processed

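H3K9me2 (6 libraries) and ATAC (2 libraries) peak lists were used as deposited. Per the submitters' processing notes, the build was mm10 and the tools, with no roles given, were HOMER, deepTools, Picard, Bowtie2 2.4.2, SAMtools 1.11 and Trim Galore 0.6.6. Peak calling by the authors, per the file headers, ran HOMER on single libraries without a control, in histone style for H3K9me2 (peak size 500 bp, tag threshold 5, Poisson p-value of 0.05 against the surrounding 10 kb) and in factor style for ATAC, with a width of 322 bp for tumour and 869 bp for spleen. Signal in a peak is its tags per 10000000, per the file headers, while scores are unscaled tags and the fold compares a peak with its local region. The deposited ATAC lists also give a focus ratio, a fraction that was not used, and the deposited H3K9me2 lists give region sizes in bp. The deposited H3K9me2 lists held 24.4 to 43.9% of the peaks their headers count, with a local fold of 2.01 or more, so a filter that no header states was applied. The covered length thus measures local enrichment and not the amount of the mark, and broad even domains can be missed.

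Peaks were merged within each library and intersected with 1 kb windows in Python 3.11.15 (numpy 2.4.6, pandas 2.3.3), and the rule was checked on simulated data. ATAC overlap meant 1 shared base or more. Genes came from the RefSeq table of GRCm38.p6. Groups and replicate numbers came from the titles. Flanks were compared by an exact permutation test in scipy 1.17.1, and shares have 95% Clopper-Pearson intervals. Nothing else was tested, since the rule used the peaks of all 6 libraries. The text names the 20 coding genes with the most constant windows or a selection of them, genes of the listed families with a window, and the 10 groups with the most windows or a selection of them. The members, the gene lists and the rule were chosen with earlier results of these data known, and the markers of other cell types after the data were seen. Base composition and repeats of the windows were not analysed here, because no genome was used.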

Additional observations from a re-analysis of the deposited data

Results flagged for a closer look

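The X chromosome, which the rule leaves out, held 155 windows covered over 500 bp or more in at least 5 of 6 libraries, 18 of them in all 6. This is 0.0907% of its 170883 windows, beside 0.0551% on the autosomes and 0.0805% on chromosome 16, the highest autosome. It was picked out as a signal in data outside the set described. Peaks covered 4.54% of the X windows on average over the 6 libraries, against 4.11% on the autosomes. The labels do not give the sex of the animals, and its part in the X share was not tested.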

How the results depend on the processing

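The number of constant windows, 1356, was 3901 with 250 bp required, 293 with 750 bp, 165 in all 6 libraries, 6637 in at least 4, 340 with the stronger 50% of each list and 283 to 445 without single libraries, where all 5 remaining libraries but none fewer had to cover a window. It was 981 with lists of equal length and 1403 with the grid shifted by 500 bp, and, chosen after seeing the data, 1511 with X, 980 with more than 500 bp and 971 without a grid. The share in coding genes, 27.4%, was 24.6% with 750 bp, 23.6% in all 6, 21.2% with the stronger peaks, 34.1% with 5 kb added to each gene and 24.7 to 28.1% without single libraries. The share within 10 kb of another, 23.9%, was 35.8% with 250 bp, 18.8% with 750 bp, 18.8% in all 6, 32.8% in at least 4, 35.6% within 100 kb and 14.9 to 23.7% without single libraries. The tumour ATAC share, 1.25%, was 0.674 to 2.13% without single libraries, lowest without cKO replicate 3 and highest without cKO replicate 2. It stayed within its interval under the other alternatives. High-signal windows numbered 4 by score and 11 by tag count, an alternative chosen after seeing the data.

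The flank difference of -0.16 times was reversed without scaling, at 0.558 percentage points (exact permutation p = 0.5). It was -0.083 with the stronger peaks (exact p = 0.5), -0.088 with lists of equal length, chosen after seeing the data (exact p = 0.3), -0.23 in all 6 and -0.13 at 11 to 50 windows (exact p = 0.1 each), and -0.19 to -0.13 without single libraries (exact p = 0.2 each, the smallest possible). With the replicate number as a block it was -0.16 (exact p = 0.25, the smallest that 3 pairs can give). Same-numbered libraries correlated at 0.48, 0.117 and 0.0141 in their deviations, and libraries of different number at -0.414 to 0.38. With 3 libraries per genotype, these values cannot show whether the numbers pair the samples. The planned sequence composition of the windows was not run, because no genome was used. The cause of these shifts was not tested.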
